A study of Mus musculus with 12 samples.

Results

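The features described here are 9 annotated rows, of the 55471 gene identifiers in each count table, at genes of vascular smooth muscle cells and pericytes. Myh11 and Rgs5 are the rows of those genes themselves. The other 7 are noncoding features annotated on the strand opposite such a gene: Gm48529 opposite Tagln, E130310I04Rik and 1700119H24Rik opposite Mylk, Gm47644 opposite Pln, Gm17276 opposite Notch3, and Gm11946 and Gm11947 opposite Smtn. They were listed by name with their high ratio of U1 to input already known, so that ratio is described below without a test. Gm11947 had no count in any of the 12 libraries, which leaves 8 features with data.

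RNA came from combined cortex and hippocampus of adult male C57BL6JL mice, 3 to 5 months old. Animals were naive, meaning handled alongside but not stimulated, or had received maximal electroconvulsive stimulation (MECS) through ear clips, 85 mA for 1 s, and were taken 90 min later. In both states the tissue was exposed to 400 mJ/cm2 of ultraviolet light, which links RNA to bound protein, and each lysate gave an input library and a library precipitated with an antibody to U1-70K, the product of Snrnp70. This makes 4 groups of 3 libraries from 6 animals, namely input and U1 libraries of naive mice and input and U1 libraries of MECS mice. No control precipitate was analysed here, so a high ratio of U1 to input cannot be told apart from other differences in recovery.

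Smooth muscle cells wrap arteries and arterioles of the brain and contract to set their width, and pericytes sit on the walls of capillaries. Together they are called mural cells, and they make up a small part of brain tissue. Contraction begins when myosin light chain kinase, encoded by Mylk, phosphorylates the light chain of smooth muscle myosin, whose heavy chain is Myh11. The U1 small nuclear ribonucleoprotein recognises 5′ splice sites at the start of introns, pairing with the last bases of the exon and the first bases of the intron, and it also limits premature cleavage of transcripts within introns.

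No source used here says which strand was counted. A row opposite a gene could therefore hold reads of the named noncoding RNA or reads of the gene on the other strand, introns included. Which of these a row holds was not tested. A gene's own row, as for Myh11, Rgs5 or Tagln, could likewise hold reads of the gene or of the other strand. This applies to the marker lists below too. Reads listed as ambiguous were 0.0104 to 0.0195% of each library. Of Tagln exon bases, 62.4% are also exon bases of Gm48529. In naive input, neuronal markers summed to 281 to 439 CPM (defined below) by own rows and 5001 to 6553 by opposite features. Astrocyte, endothelial and smooth muscle markers were also higher by opposite features, and oligodendrocyte, microglial, fibroblast and pericyte markers were lower. Values below are those of the annotated row. All positions are on build GRCm38 with GENCODE M21 genes. Gm48529 (chromosome 9, 45930112 to 45933738, plus strand) has 48.9% of its exon bases in exons of Tagln and 51.1% in its introns. At Mylk, E130310I04Rik (chromosome 16, 34943175 to 34958994, minus strand) has 14.6% of its exon bases in Mylk exons and 85.4% in introns, and 1700119H24Rik (34935854 to 34939329, minus strand) lies 100% in introns. Gm47644 (chromosome 10, 53337753 to 53345085, minus strand) has 60.7% in exons of Pln, and it also lies within Cep85l on its own strand. Gm17276 (chromosome 17, 32113411 to 32141843, plus strand) has 15.5% in Notch3 exons and 65.5% in Notch3 introns. Gm11946 (chromosome 11, 3530157 to 3536856, plus strand) has 16.4% in Smtn exons and 83.6% in introns. All exon bases of Gm11947 (3534238 to 3534907) also belong to Gm11946 on the same strand. Myh11 (chromosome 16, 14194535 to 14291372, minus strand) and Rgs5 (chromosome 1, 169655501 to 169695813, plus strand) share no exon base with an opposite-strand exon.

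The exons of 5 of the 7 opposite-strand features run across 5′ splice sites of the gene on the other strand, 12 sites in all. They are shown because a 5′ splice site is the sequence that U1 recognises. Each is written 5′ to 3′ on the strand of the host gene, as the reverse complement of the annotated RNA of the feature, with the last 3 exon bases and the first 6 intron bases in capitals. The sequences were read from the GENCODE M21 transcripts of the features.
Tagln, chr9:45930819-45930838, minus strand: tatGAAGTATGTgtccactg
Tagln, chr9:45931286-45931305, minus strand: atgAAGGTATAAggaaaaaa
Tagln, chr9:45931568-45931587, minus strand: ggtGTGGTGAGTaacccttg
Mylk, chr16:34952824-34952843, plus strand: aagCAGGTAACAgtcacagt
Mylk, chr16:34953267-34953286, plus strand: tgcAAGGTAATGctaaatta
Mylk, chr16:34953701-34953720, plus strand: aagCAGGTCAGTcgtggaag
Mylk, chr16:34956531-34956550, plus strand: tcgTGGGTGAGTccaggaaa
Pln, chr10:53337790-53337809, plus strand: gccAAGGTAAGAcgtgagat
Pln, chr10:53344667-53344686, plus strand: ggaAATGTAAGAacatattc
Notch3, chr17:32141203-32141222, minus strand: gatCGGGTGAGTgactgtgg
Smtn, chr11:3531031-3531050, minus strand: gagCAGGTGAGGagccctgt
Smtn, chr11:3531188-3531207, minus strand: agcAAGGTGAGTtgggcgag

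All 12 introns begin with GT, and none begins with GTAAGT, the letters that pair best with U1 at these positions. Among all features passing the count filter over the 12 libraries, 1650 such host sites were found, and 8.55% of them begin with GTAAGT. Of the features with a host gene on the other strand, 21.9% (948 of 4320) span a host 5′ splice site, against 71.4% (5 of 7) of the features here. The 7 include Gm11947, which has no count and did not pass that filter, and exon lengths were not matched. GTAAGT on either strand occurs somewhere in the exons of 5 of the 9 features. It does so in 51.2% of the 12161 features that pass the count filter and match GENCODE M21. GGTAAG, which overlaps GTAAGT by the letters GTAAG, occurs in 6 of the 9 and in 56.2%. These are descriptions of letters, with no test, and the view of sites inside exons was chosen after the data were seen.

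The libraries held 704432 to 1962312 counts in genes, which was 1.42 to 1.84% of the listed reads, and reads assigned to no feature made up 88.3 to 91.3%. Levels are given as CPM, counts relative to the library's gene counts after scaling by the TMM factors of edgeR. The 8 features took 0.0397 to 0.0589% of gene counts in the 6 input libraries and 0.172 to 0.329% in the 6 U1 libraries. Naive U1 3 stood apart, with all 8 above the mean of its group, by 0.49 on average on the log2 scale, while in naive U1 1 only 1 of 8 was above it (mean deviation -0.32).

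**Figure D1:**
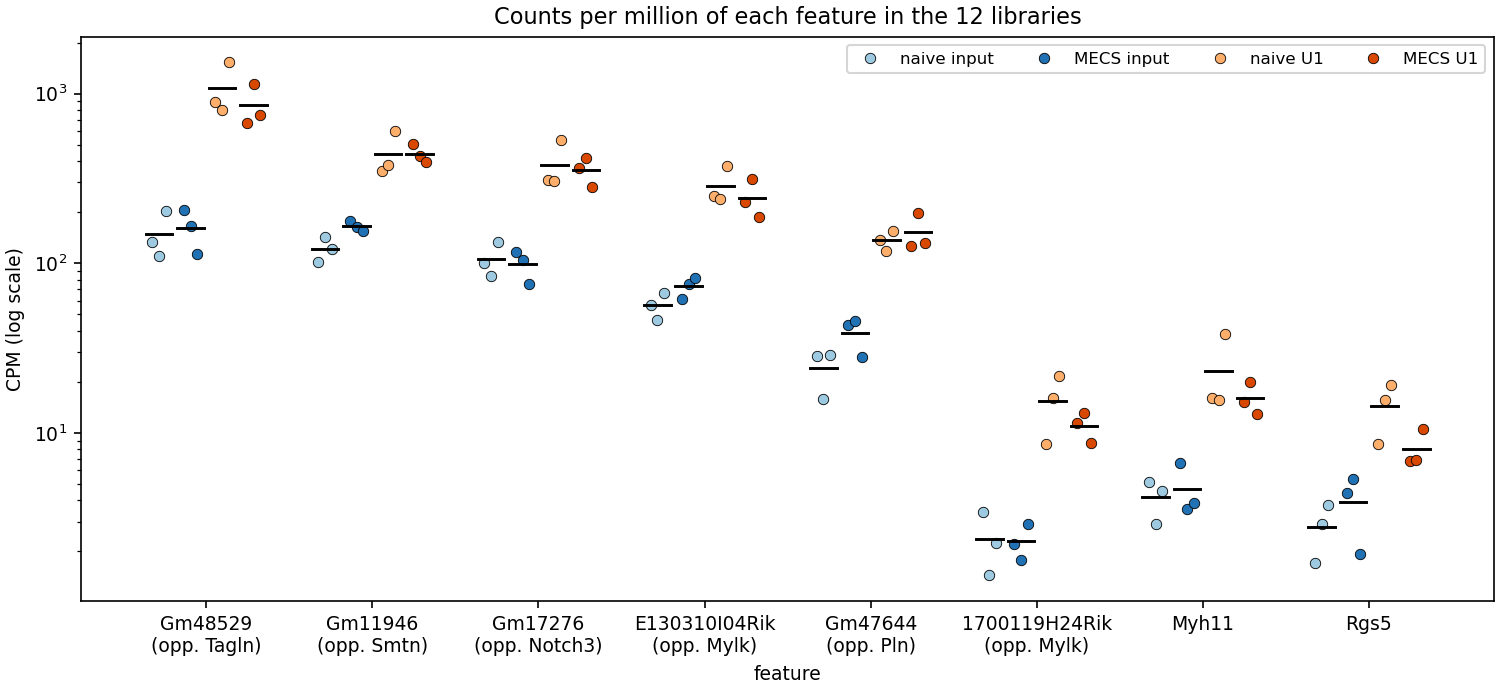
CPM (log axis) of the 8 features with counts, 1 point per library and a bar at the mean of each group of 3 libraries. In every feature the 3 U1 libraries lie above the 3 input libraries of the same state, and naive and MECS points are interleaved for most features.

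Per kilobase of exon, the order of mean levels in naive input was Gm48529 at 58.6 ± 18.9 CPM (SD, n = 3 here and below), Gm17276 at 33.5 ± 7.93, Gm11946 at 28.0 ± 4.62, E130310I04Rik at 15.1 ± 2.74, Gm47644 at 8.95 ± 2.66, 1700119H24Rik at 4.04 ± 1.69, Rgs5 at 0.613 ± 0.226 and Myh11 at 0.550 ± 0.152. Libraries of neighbours overlapped for Gm17276 and Gm11946 and for Rgs5 and Myh11. The order was the same in naive U1, from 423 ± 156 for Gm48529 to 3.05 ± 1.69 for Myh11. In MECS input Gm11946 (38.0 ± 2.65) stood above Gm17276 (31.3 ± 6.75), and in MECS U1 Myh11 (2.11 ± 0.465) stood above Rgs5 (1.78 ± 0.466), within their spread. Rows read under the opposite strand were thus higher per length than Myh11 and Rgs5 in each group.

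Among the features of the contractile apparatus, Gm48529 was the most abundant. Tagln, which it faces, encodes transgelin, an actin-binding protein of smooth muscle. Gm48529 had 133, 110 and 202 CPM in naive input 1 to 3 and 897, 798 and 1527 in naive U1 1 to 3. After MECS it had 207, 165 and 114 CPM in input and 674, 1144 and 752 in U1. Every U1 library was above every input library, and naive U1 3 was the highest of the 12. The log2 difference of U1 from input was 2.84 (SE 0.22, here and below the standard error from the edgeR fit) in naive and 2.40 (SE 0.20) in MECS brain, from mean levels of 149 ± 48.0 and 1074 ± 395 CPM, and of 162 ± 46.8 and 857 ± 252 CPM.

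The 2 features within Mylk were both higher in U1 than in input, at very different levels. E130310I04Rik had 56.4, 46.3 and 66.9 CPM in naive input and 249, 238 and 374 in naive U1. In MECS brain its values were 61.9, 75.0 and 81.8 CPM in input and 230, 315 and 187 in U1. Input and U1 did not overlap in either state, and its U1 against input log2 difference was 2.32 (SE 0.20) in naive and 1.75 (SE 0.19) in MECS brain. 1700119H24Rik, a short feature in Mylk introns, rested on few reads: 4, 1 and 3 counts in naive input and 3, 2 and 3 in MECS input. It had 7, 32 and 25 counts in naive U1 and 15, 17 and 14 in MECS U1. Its log2 differences, 2.62 (SE 0.57) and 2.22 (SE 0.54), were correspondingly imprecise.

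Smtn encodes smoothelin, an actin-associated protein of contractile smooth muscle. Gm11946, opposite it, had 102, 142 and 121 CPM in naive input and 348, 377 and 600 in naive U1. In MECS brain it had 178, 163 and 155 CPM in input and 506, 428 and 392 in U1. The U1 libraries lay above the input libraries in both states, by 1.88 (SE 0.19) and 1.42 (SE 0.15) on the log2 scale, the latter being the smallest difference among the features tested. Gm11947, inside Gm11946, was at 0 counts in all 12 libraries. A read in its exons also falls in an exon of Gm11946, so a count of 0 sets no limit on its level. Reads listed as ambiguous were 0.0104 to 0.0195% of each library.

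Myh11, the smooth muscle myosin heavy chain, is annotated without an opposite-strand partner and was sparsely counted. It had 6, 2 and 6 counts in naive input, 9, 4 and 4 in MECS input, 13, 31 and 44 in naive U1 and 20, 26 and 21 in MECS U1. U1 exceeded input in CPM in every library of both states. The log2 differences were 2.39 (SE 0.49) and 1.71 (SE 0.43).

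Phospholamban, encoded by Pln, restrains the calcium pump that refills the sarcoplasmic reticulum. Gm47644, opposite Pln, had 28.2, 15.9 and 28.6 CPM in naive input and 138, 117 and 155 in naive U1. After MECS it had 43.5, 45.6 and 27.9 CPM in input and 127, 197 and 132 in U1. The log2 differences of U1 from input were 2.43 (SE 0.23) in naive and 1.95 (SE 0.22) in MECS brain, with no overlap between U1 and input libraries.

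Notch3 is the Notch receptor of mural cells and receives ligand from neighbouring endothelial cells. Gm17276, opposite Notch3, had 100, 84.0 and 133 CPM in naive input and 310, 303 and 532 in naive U1. It had 116, 105 and 75.0 CPM in MECS input and 363, 416 and 280 in MECS U1. Its log2 differences of 1.84 (SE 0.20) and 1.83 (SE 0.18) were nearly equal in the 2 states. Rgs5, a regulator of G protein signalling and a marker of pericytes, had 2, 2 and 5 counts in naive input, 6, 6 and 2 in MECS input, 7, 31 and 22 in naive U1 and 9, 9 and 17 in MECS U1. The naive log2 difference was 2.36 (SE 0.56). In MECS brain Rgs5 did not pass the count filter, and its mean levels were 3.90 ± 1.78 CPM in input and 8.07 ± 2.12 CPM in U1.

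Across these features the median log2 difference of U1 from input was 2.37 over 8 tested in naive brain and 1.83 over 7 tested in MECS brain, beside 0.03 and 0.02 over all features tested. In the quasi-likelihood test of edgeR, adjusted by Benjamini-Hochberg at 0.05, 4.19% of 10918 features were called higher and 6.26% lower in naive U1, and 3.3% higher and 5.21% lower of 10791 in MECS U1. With the animal as a block, the number called in MECS brain went from 918 to 1488. Groups that did not overlap, with U1 higher, were found in 13.0% and 12.1%, against all 8 features with counts in either state. The features were chosen on this contrast, so nothing is read from that count.

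The ratio was also taken in each animal, as log2 of U1 CPM plus 0.5 over input CPM plus 0.5, since the titles show which U1 and input libraries come from 1 mouse. All 48 ratios, 8 features in 6 animals, were above 0, but the features were chosen for a high ratio. The lowest was 0.33, for Rgs5 in MECS animal 2, and the highest 3.09, for 1700119H24Rik in naive animal 2. For Gm48529 the 3 naive animals gave 2.74, 2.85 and 2.91, and the MECS animals 1.70, 2.79 and 2.72. MECS animal 1 was thus the only one of 6 below 2.72. For Gm17276 the naive animals gave 1.62, 1.85 and 1.99 and the MECS animals 1.64, 1.99 and 1.89, an interleaved set. Rgs5 lay between 2.04 and 2.25 in the naive animals and gave 0.57, 0.33 and 2.18 in MECS animals.

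**Figure D2:**
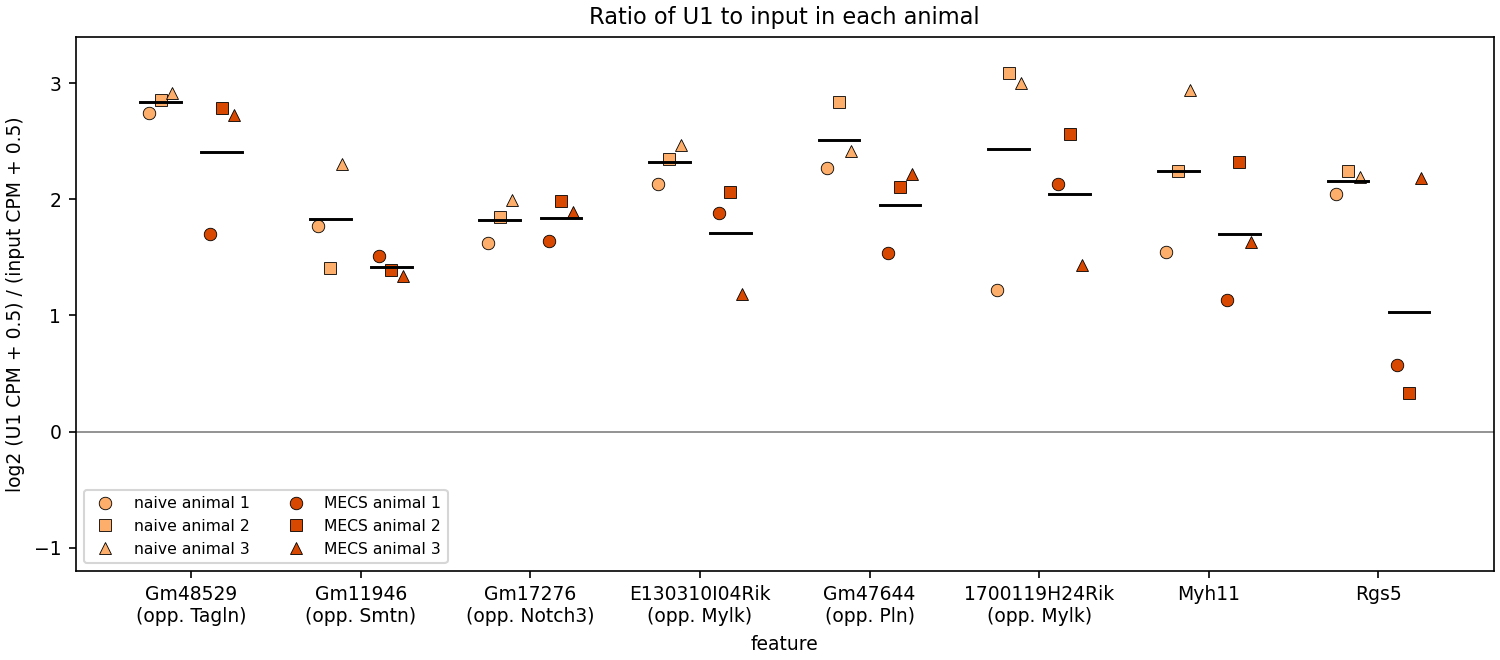
Log2 of the ratio of U1 to input in each of 6 animals for the 8 features with counts, with a pseudocount of 0.5 CPM; bars mark the mean of 3 animals. All points lie above 0, and for E130310I04Rik and Gm47644 the 3 MECS animals lie below the 3 naive animals, as they do for 4.74% of 12184 features. The features were chosen for a high ratio.

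The rows annotated to the genes on the other strand gave much smaller differences. Since the counted strand is not given, these rows need not hold reads of the genes' own RNA. The Tagln row (chromosome 9, 45929619 to 45936058, minus strand) had 74.1 ± 2.70 CPM in naive input and 85.0 ± 6.66 in naive U1, a log2 difference of 0.21 (SE 0.20, adjusted p = 0.625 by edgeR). In MECS brain the Tagln difference was -0.00 (SE 0.19). Mylk gave 0.70 (SE 0.31, adjusted p = 0.175) and 0.36 (SE 0.30), and Smtn gave 0.39 (SE 0.37) and 0.90 (SE 0.37, adjusted p = 0.152). The Pln row was lower in U1 by estimate, at -0.41 (SE 0.19, adjusted p = 0.191) in naive and -0.36 (SE 0.14, adjusted p = 0.134) in MECS brain. Notch3 alone of these 5 rows passed the test, rising by 0.60 (SE 0.17, adjusted p = 0.0164) in naive U1, and it gave 0.16 (SE 0.17) in MECS brain. The Notch3 call was lost with no count filter and without naive input 1, naive input 2, naive U1 1 or naive U1 3. Pln was called lower in MECS brain with the animal as a block (adjusted p = 0.0430), and in naive brain without naive U1 2. The difference between a feature and the row opposite it was not tested. Of the exon bases of Tagln, 62.4% are also exon bases of Gm48529, and the counts do not show where within a feature its reads lie.

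**Figure D3:**
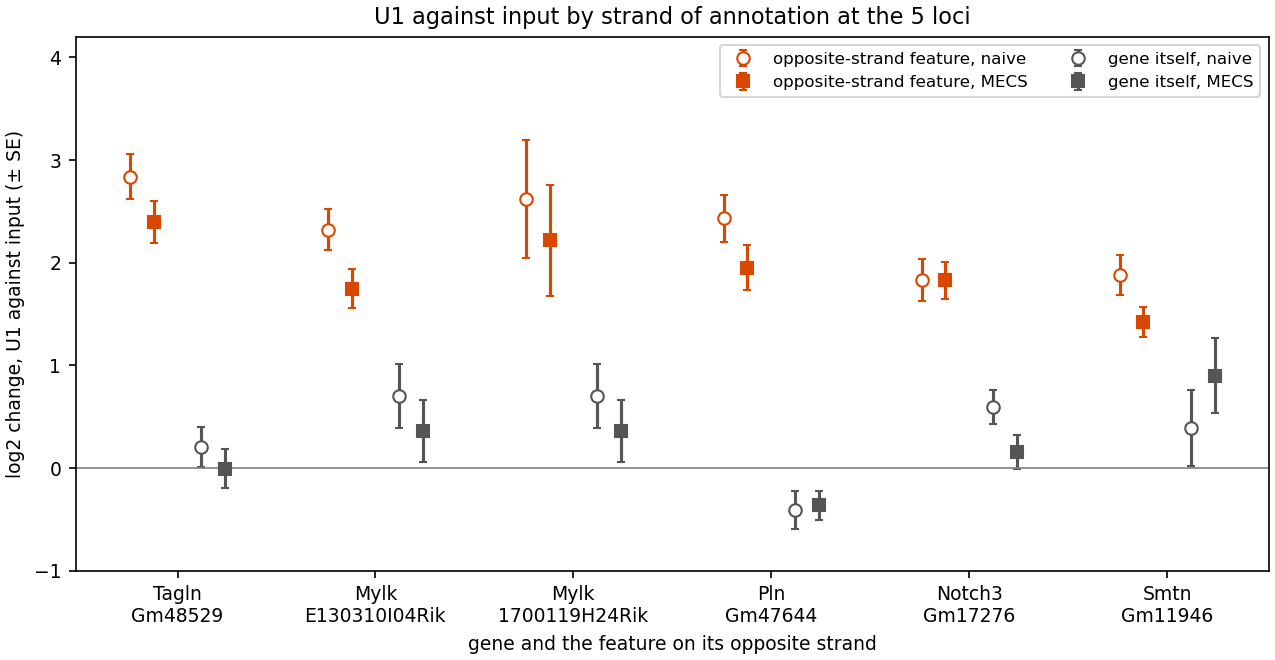
Log2 difference of U1 from input, with its standard error, 3 against 3 libraries in naive (open) and MECS (filled) brain. Orange marks each opposite-strand feature and grey the annotated row of the gene it faces. The orange points lie between 1.42 and 2.84 and the grey points between -0.41 and 0.90.

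Whether convulsion altered these features in total RNA was asked by setting MECS input against naive input. In bulk tissue, fewer cells of a type and less RNA per cell cannot be told apart. Of the 9 features, 5 had enough counts to be tested, and none was called, beside 0.606% of 10402 features called in either direction. The Smtn feature Gm11946 gave 0.43 (SE 0.17, adjusted p = 0.361) and the Pln feature Gm47644 0.62 (SE 0.28, adjusted p = 0.467). All 3 MECS input libraries of Gm11946 lay above the naive input libraries, as 8.88% of all features did, whereas those of Gm47644 overlapped. E130310I04Rik gave 0.31 (SE 0.21), Gm48529 0.08 (SE 0.20) and Gm17276 -0.14 (SE 0.20). The median over the 5 was 0.31, beside -0.02 over all features, and 2 of the 5 had an unadjusted p under 0.05, as did 1005 of 10402. Without the count filter, 1700119H24Rik, Myh11 and Rgs5 gave -0.09 (SE 0.94), 0.16 (SE 0.68) and 0.50 (SE 0.80), too imprecise to place. The direction for Gm48529 turned without naive input 2 (-0.06) or MECS input 1 (-0.11), and for Gm17276 without naive input 3 (0.10) or MECS input 3 (0.04).

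In the U1 libraries, MECS against naive gave no call among the 8 features tested, beside 0.386% of 11141 called in either direction. The largest estimate was for Rgs5, at -0.86 (SE 0.41, adjusted p = 0.471), from 14.4 ± 5.31 to 8.07 ± 2.12 CPM, with overlapping groups. 1700119H24Rik gave -0.55 (SE 0.39), Myh11 -0.54 (SE 0.37), Gm48529 -0.34 (SE 0.21) and E130310I04Rik -0.25 (SE 0.19). Gm17276, Gm11946 and Gm47644 gave -0.13 (SE 0.19), -0.02 (SE 0.18) and 0.15 (SE 0.18). Estimates were below 0 for 7 of 8, with a median of -0.30 beside -0.02 over all features, and 1 of 8 had an unadjusted p under 0.05, as did 1172 of 11141. This lean rested on naive U1 3: without that library 3 of 8 were below 0 and the median was 0.02. Without MECS U1 3, 5 of 8 were below 0, with a median of -0.17, and without MECS U1 2, 7 of 8, with a median of -0.52. Endothelial genes read by their own rows had estimates below 0 for all 12 tested, with a median of -0.32 and none called, and in input for 8 of 9, with a median of -0.25. This lean was not particular to endothelial genes. In input, pericyte rows were above 0 for 1 of 6 (median -0.40) and astrocyte rows for 0 of 5 (median -0.21). Smooth muscle rows were above 0 for 9 of 12 (median 0.03). In U1, astrocyte rows were above 0 for 0 of 3. The part of other cell types in the values of the smooth muscle and pericyte features was not tested. These groups share the naive U1 libraries with the values for which the features were chosen.

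**Figure D4:**
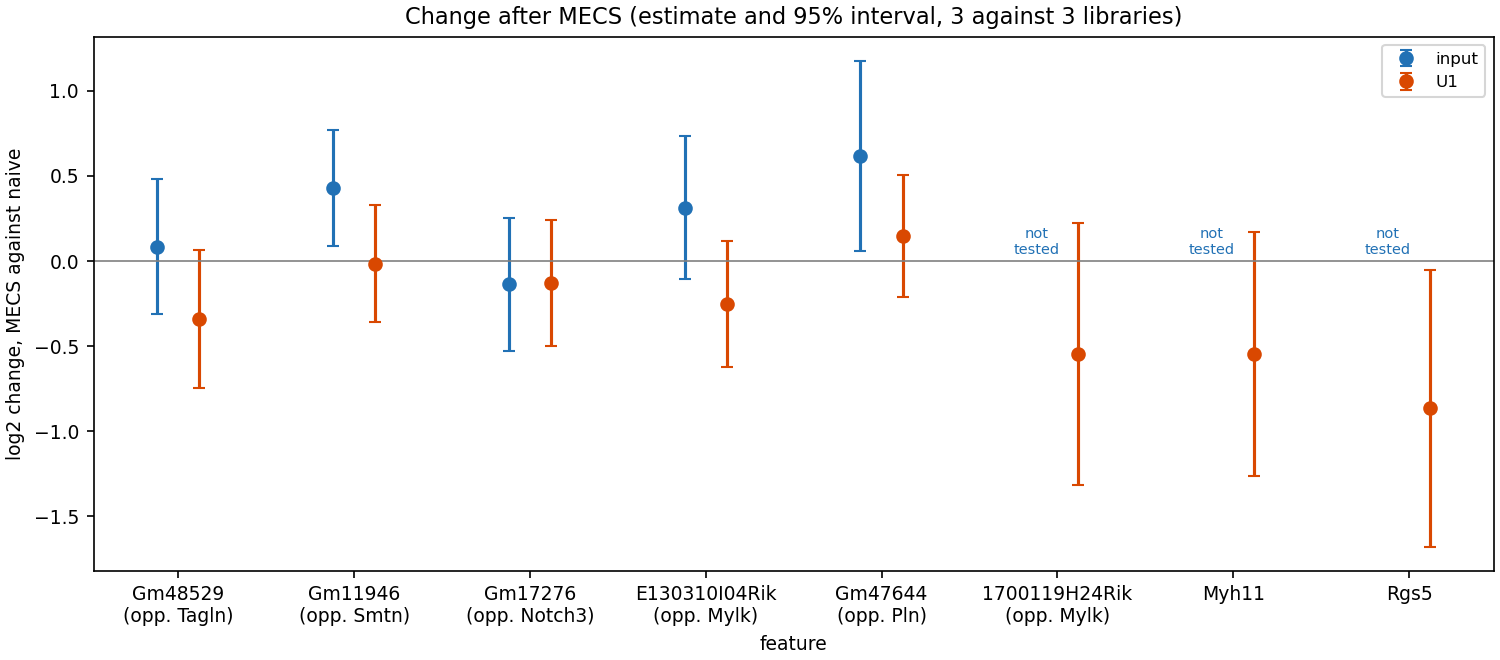
Estimated log2 change after MECS in input (blue) and U1 (orange) libraries, with normal 95% intervals, 3 against 3 libraries. Most intervals cross 0, those of Gm11946 and Gm47644 in input and of Rgs5 in U1 do not before adjustment, and no change was called after adjustment.

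The change in the ratio itself, an interaction over all 12 libraries, was called for 0 of 8 features and for 0.0% of 12184, and 383 features but none of the 8 had an unadjusted p under 0.05. DESeq2 and limma-voom made 0 calls as well. Estimates, MECS minus naive, were -1.33 (SE 0.81) for Rgs5, -0.67 (SE 0.70) for Myh11, -0.57 (SE 0.29) for E130310I04Rik, -0.47 (SE 0.33) for Gm47644 and -0.46 (SE 0.25) for Gm11946. Gm48529 gave -0.43 (SE 0.32), 1700119H24Rik -0.40 (SE 0.89) and Gm17276 0.00 (SE 0.29). The median was -0.47, beside 0.01 over all features, and it was -0.14 without naive U1 3 and -0.70 without MECS U1 2. In the ratios per animal, the MECS and naive animals did not overlap for E130310I04Rik (1.71 ± 0.46 against 2.32 ± 0.17) and Gm47644 (1.95 ± 0.37 against 2.51 ± 0.30), both lower after MECS, as were 4.74% of all 12184 features. Each gave p = 0.1 in a 2-sided exact permutation test, the smallest that 3 against 3 animals can give, and the other 6 features gave 0.2 to 0.8. The naive libraries here are those on which the features were chosen.

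Other genes of smooth muscle were read from a list of 24, by their own rows. Of 13 tested in naive brain, 2 were higher in U1, beside 4.19% of all features: Myh11, one of the features chosen on this contrast, and Flna (filamin A, an actin crosslinker) at 1.72 (SE 0.46, adjusted p = 0.0115 by edgeR). Cald1, which encodes the actin-binding caldesmon, gave 1.01 (SE 0.44), and Acta2, the smooth muscle actin, 0.88 (SE 0.33, adjusted p = 0.0886). In MECS brain Cald1 gave 0.56 (SE 0.42) and Acta2 0.02 (SE 0.28). Estimates in naive brain were above 0 for 10 of the 13, and the lowest was -0.41 for Pln. In MECS brain 1 of 14 tested was higher, Myh11, beside 3.3% of all features, and Kcnmb1, a subunit of the calcium-activated potassium channel, gave 1.54 (SE 0.49, adjusted p = 0.0544). With the animal as a block, Kcnmb1 was called too, making 2 higher, and Pln was lower. The Flna call was lost with limma-voom and without naive input 1 or naive U1 3, and the Myh11 call in MECS brain with DESeq2 and without MECS input 2, MECS input 3 or MECS U1 2. The list median was 0.39 in naive and 0.16 in MECS brain with Myh11, which was chosen on this contrast. Without Myh11 it was 0.30 and 0.14, with 1 of 12 and 0 of 13 called higher. Over all features the median was 0.03 and 0.02. No member of the list was at 0 in all libraries, and its summed level was 492 to 631 CPM in naive input, 538 to 594 in MECS input, 564 to 664 in naive U1 and 551 to 622 in MECS U1.

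Read instead by the gene on the opposite strand, with counts summed over all features that a gene hosts, 8 genes of the smooth muscle list were tested in naive brain. Of these, 6 were higher in U1 and 1 was lower, beside 6.2% higher and 10.3% lower among 3099 hosts. Leaving out the hosts of the features above, 4 remained. The hosts Mrvi1, which encodes a substrate of cGMP-dependent kinase, and Cald1 were higher, by 1.85 (SE 0.41, adjusted p = 0.00209) and 1.65 (SE 0.36, adjusted p = 0.00172). Ppp1r12b, a regulatory subunit of myosin phosphatase, was lower at -0.50 (SE 0.14, adjusted p = 0.0133). In MECS brain, where 4.56% of 3138 hosts were higher and 6.69% lower, Cald1 was again higher at 1.19 (SE 0.32, adjusted p = 0.0182) and Ppp1r12b lower at -0.50 (SE 0.13, adjusted p = 0.0142), and Mrvi1 gave 1.08 (SE 0.36, adjusted p = 0.0656, and 0.00777 with the animal as a block). The Mrvi1 and Cald1 calls in naive brain held without each library in turn. That of Ppp1r12b was lost without naive input 1, naive input 2 or naive U1 1 and with library size scaling, and in MECS brain without MECS U1 1. The Cald1 call in MECS brain was lost without any 1 of 4 libraries, MECS input 1 and 3 and MECS U1 1 and 2.

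The pericyte list held 20 genes. By their own rows, 3 of 8 tested were higher in naive U1, beside 4.19% of all features: Rgs5, one of the features chosen on this contrast, Notch3 and Gja4, a gap junction protein, at 2.76 (SE 0.49, adjusted p = 0.000112). In MECS U1, 4 of 8 were higher, beside 3.3% of all features: Gja4 at 2.79 (SE 0.53, adjusted p = 0.00106), Cox4i2, a subunit of cytochrome c oxidase, at 2.44 (SE 0.64, adjusted p = 0.0167), and the transcription factor genes Zic1 at 1.18 (SE 0.29, adjusted p = 0.00878) and Foxc1 at 0.83 (SE 0.21, adjusted p = 0.0115). The Gja4 calls held without each library in turn, whereas the count fell to 1 without naive input 1 and to 2 without MECS input 1 or MECS U1 2. The Cox4i2 call was lost with DESeq2 and without MECS input 1, MECS input 3, MECS U1 1 or MECS U1 2, that of Foxc1 without MECS input 1 or MECS U1 3, and that of Zic1 without MECS U1 2. By opposite-strand host, 3 of 4 were higher in naive U1, counting Notch3, the host of Gm17276, which was chosen on this contrast. Without it 2 of 3 were higher, beside 6.2% of all hosts, namely Tbx18 at 1.74 (SE 0.28, adjusted p = 6.9e-05) and Foxf2 at 1.25 (SE 0.30, adjusted p = 0.00414), both transcription factor genes of mural cells. In MECS U1 all 4 were higher, or 3 of 3 without Notch3, beside 4.56% of all hosts, with Tbx18 at 1.27 (SE 0.21), Foxf2 at 0.92 (SE 0.24) and Abcc9, a potassium channel subunit gene, at 0.81 (SE 0.24, adjusted p = 0.0366). The Tbx18 calls held without each library in turn in both states and the Foxf2 call in naive brain. In MECS brain the Foxf2 call was lost without MECS input 3, MECS U1 1 or MECS U1 2, and that of Abcc9 without any 1 of 5 libraries, all but MECS U1 3. The summed level of the pericyte rows was 275 to 314 CPM in naive input, 236 to 283 in MECS input, 411 to 585 in naive U1 and 375 to 423 in MECS U1, and none was at 0 in all libraries.

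Against naive, no gene of either list was called after MECS, in input or in U1 and read either way, beside 0.989% of 3033 hosts called in input and 0.596% of 3187 in U1. The median over own rows in input was 0.03 for the smooth muscle list, with 9 of 12 above 0. It was -0.40 for the pericyte list, with 1 of 6 above 0, beside -0.02 over all features. In U1, without Myh11 and Rgs5, the medians were -0.07 (7 of 16 above 0) and -0.09 (3 of 9), beside -0.02. By own rows, the widest estimates in input were Flna at 0.52 (SE 0.45) in the smooth muscle list and Zic1 at -0.73 (SE 0.31, adjusted p = 0.419) in the pericyte list. In U1 they were, by own rows, Des, the intermediate filament desmin, at -0.85 (SE 0.60) and Rgs5. The Notch3 row gave -0.49 (SE 0.16, adjusted p = 0.201) in U1, with the MECS libraries below the naive ones, as for 6.67% of all features.

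Markers of other brain cells were read in naive U1 against input as well, where 4.19% of all features were higher and 6.26% lower. The summed level of 20 endothelial genes by own rows was 343 to 383 CPM in naive input and 458 to 603 in naive U1, and 2 of 10 tested were higher (1 with the animal as a block, 0 without naive input 1 or naive U1 3). By opposite-strand host, 3 endothelial genes were tested, Slc2a1, Nos3 and Abcb1a, and all 3 were higher in both states, with a median of 0.82 in naive and 0.88 in MECS brain. The 12 neuronal genes summed to 281 to 439 CPM in naive input and 102 to 208 in naive U1, and 2 of 8 tested were lower. Astrocyte genes (7) went from 193 to 405 CPM to 84.6 to 140 with 2 of 5 lower, and oligodendrocyte genes (7) from 484 to 721 CPM to 264 to 281 with 3 of 5 lower. Microglial genes (7, 361 to 409 and 319 to 329 CPM) had 0 of 5 called, and fibroblast genes (11, 51.1 to 97.0 and 36.7 to 56.5 CPM) had 0 of 2. None of these lists had a gene at 0 in all libraries. Summed by opposite-strand host, neuronal genes had 5001 to 6553 CPM in naive input and 2201 to 2743 in naive U1. Astrocyte hosts had 4102 to 6324 and 1083 to 1263, and endothelial hosts 827 to 985 and 1455 to 2491. Host sums were below own rows for oligodendrocyte (47.9 to 62.3 in naive input), fibroblast (12.8 to 27.5) and microglial genes (1.71 to 17.4). By host, beside 6.2% higher and 10.3% lower of all hosts, 1 neuronal gene of 5 was higher and 2 were lower in naive U1. Both astrocyte genes tested, 2 of 2, were lower. None of 2 oligodendrocyte genes and 1 fibroblast gene was called, and no microglial gene was tested. Their part in the ratios of the smooth muscle and pericyte features was not tested.

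The 8 features followed each other over the 12 libraries. Each correlated with the mean of the other 7, on standardized log2 CPM, at r between 0.872 for Rgs5 and 0.989 for Gm48529. Among 12153 other features, those most like their mean profile were Efna3 at r = 0.985, Gm43352 at 0.984, Gpr17 at 0.983, Bvht at 0.981, D030062O11Rik at 0.976 and Tanc2 at 0.975. Efna3 is annotated opposite Gm15998, Gm43352 opposite Lef1, Gpr17 opposite Lims2 and D030062O11Rik opposite Tbx18. In naive brain the U1 against input log2 difference was 2.23 for Efna3, 1.60 for Gm43352, 2.01 for Gpr17, 2.44 for Bvht, 1.78 for D030062O11Rik and 1.44 for Tanc2. The points share libraries and the split between U1 and input, so any feature that is high in U1 ranks high, and the correlations are a description.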

How the data were processed

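The authors deposited whole-number counts per Ensembl gene identifier, 1 table per library and not normalized. The submitters' processing notes name build mm10 and, without saying what each did, DESeq2, Salmon 1.4, StringTie 2.1.3, HISAT2 2.2.0, FastQC and Trimmomatic 0.39. Per the labels' protocols, a stranded total RNA kit with ribosomal RNA depletion and 100 bp single-end reads were used. Which program counted reads, on which strand and with which genes: these were not given in the sources used here. Libraries of another antibody were not analysed here.

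Of 55471 identifiers, 241 did not match GENCODE M21. Rows naming no gene (88.3 to 91.3% of reads in no feature) were left out. Counts were tested with edgeR 4.0.16 (quasi-likelihood, TMM, filterByExpr) in R 4.3.3, adjusted by Benjamini-Hochberg at 0.05 over all features tested. SE is the log2 change divided by the square root of F, or, for changes near 0, from the information matrix of the fit. On simulated data with 200 features changed 4-fold, 88% were recovered for the interaction (11730 features) and 99.5% for MECS in input (10075). The simulation used 1 fixed dispersion, 0.05, and changed only features above the median level. Estimated MECS changes of the features here were all smaller than 4-fold, and 1700119H24Rik, Myh11 and Rgs5 had few input counts. The recovered shares therefore do not give the power for these features. A host is the only opposite-strand gene holding at least 50% of a feature's exon bases, with at most 10% in any other. Host counts and sites in exons were taken up after seeing the data. No genome sequence was used, so sites in host introns outside the features were not searched.

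U1 and input libraries of an animal are paired by title. Their deviations from the group means correlated at 0.02, -0.10 and -0.02 in naive and at 0.11, 0.22 and 0.12 in MECS animals. The highest correlation of each input library with a U1 library of another animal was 0.05, 0.07 and 0.06 in naive mice. In MECS mice it was -0.01, -0.11 and 0.02. Pairs by title were thus lower than these in naive and higher in MECS mice. The main edgeR fits did not use this pairing. The replicate block used it for U1 against input and for the interaction. Nothing says that samples are separate litters, so p-values measure the spread between the libraries of these animals.

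The features and gene lists were chosen with earlier results of these data known. Named genes are the 9 features, the 5 genes opposite them, up to 4 genes per smooth muscle or pericyte list with the widest change and any called, and the 6 most similar features with a mean of at least 1 CPM. The alternatives tried were limma-voom (limma 3.58.1) and DESeq2 1.42.0 as other tests, scaling by RLE or by library size, no filter or a CPM filter, no mitochondrial or ribosomal RNA features, a replicate block, 1 fit over all libraries, each library left out, and other pseudocounts. For hosts, RLE, library size, the block and each library left out were added after seeing the data. A result for 1 listed gene is not reported here.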

Additional observations from a re-analysis of the deposited data

How the results depend on the processing

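No alternative gave a call for any of the features in MECS against naive input, MECS against naive U1 or the interaction. In naive U1 against input 7 to 8 were called, Rgs5 being lost without naive input 1, and in MECS brain 5 to 7, with 1700119H24Rik lost in 3 alternatives and Myh11 in 4. Their log2 differences stayed above 0 in all alternatives run. The features were chosen on this contrast, so nothing is read from these counts. Over all features, MECS against naive input gave 63 calls, and 129 with library size scaling, 111 with no filter, 97 with a CPM filter, 142 with the replicate block and 19 (without naive input 1) to 114 (without MECS input 1) leaving out 1 library. It also moved to 21, 31 and 24 without naive input 2, naive input 3 and MECS input 3. MECS against naive U1 gave 43, and 151 with no filter, 92 with a CPM filter, 105 with DESeq2, 88 with all libraries in 1 fit, 35 with the replicate block and 13 (without MECS U1 1) to 225 (without naive U1 2) leaving out 1 library, with 15 without naive U1 1 and 121 without MECS U1 2. Naive U1 against input gave 1141 (458 higher, 683 lower), 711 (without naive input 1) to 1254 leaving out 1 library, and 565 higher and 562 lower with library size scaling. MECS U1 against input gave 918, 1488 with the animal as replicate block and 613 to 894 leaving out 1 library. The interaction gave 0, and 1 with library size scaling, with no filter, with a CPM filter and with the replicate block, and 0 to 1 leaving out 1 library. The cause of these shifts was not tested. In MECS against naive U1, Gm11946 gave 0.028 with no filter, 0.036 with a CPM filter, 0.030 with DESeq2, 0.019 with limma-voom and 0.016 with the replicate block. Gm17276 gave -0.061 with library size scaling in the interaction and -0.056 on unscaled library sizes in the ratio per animal. Leaving out 1 library, the ranges that cross 0 were -0.11 to 0.41 for Gm48529 and -0.25 to 0.097 for Gm17276 in input. In U1 they were -0.58 to 0.016 for Gm48529, -0.064 to 0.27 for Gm47644, -0.26 to 0.20 for Gm17276, -0.14 to 0.28 for Gm11946 and -0.81 to 0.015 for Myh11. In the interaction the range was -0.21 to 0.33 for Gm17276. In MECS U1 against input, the Tagln row gave 0.0072 with library size scaling and -0.17 to 0.087 leaving out 1 library, and the Notch3 row -0.0034 to 0.26. Naive and MECS animals share only a number: their deviations correlated at -0.10 to 0.07, and the replicate block changed no call of a feature here. The search of host introns for splice site letters was not run. Counts of 1 to 9 in input limit 1700119H24Rik, Myh11 and Rgs5.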
